A study of Arabidopsis thaliana with 30 samples.

Results

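The 6 genes described here encode the cellulose synthase catalytic subunits of the primary cell wall of Arabidopsis thaliana: CESA1 (AT4G32410), CESA3 (AT5G05170, also called CEV1), CESA6 (AT5G64740), CESA2 (AT4G39350), CESA5 (AT5G09870) and CESA9 (AT2G21770). They were chosen by name among 27444 protein-coding genes, and every ATAC-seq peak that overlapped a gene or the 1 kb on either side of it was assigned to that gene. This rule gave 344 of the 734458 peaks in 30 libraries. The peaks fell on 17 of 42611 accessible elements, windows of 150 bp to either side of a summit, kept when 1 or more groups had a peak there in each of their 2 libraries. No measured value entered this rule, though earlier results of these data were known when the genes were chosen.

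Cellulose is spun out at the plasma membrane by rosette-shaped complexes of CESA proteins that move along cortical microtubules. In growing cells the complex needs CESA1, CESA3 and a member of the CESA6-like branch, in which CESA2, CESA5 and CESA9 can take the place of CESA6 to differing degrees. CESA5 is also known for its part in seed coat mucilage, and CESA9 for its part in pollen and the seed coat. CESA4, CESA7 and CESA8 form the separate complex of the secondary wall.

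In ATAC-seq the Tn5 transposase cuts and tags open DNA in isolated nuclei, so peaks mark accessible chromatin. The 15 groups of 2 libraries were Col-0 root, Col-0 stem, Col-0 shoot and the shoots of 12 mutants. The mutants were gcn5 (a histone acetyltransferase), hda6 (a histone deacetylase), nrpd1-3 (the largest subunit of RNA polymerase IV, which acts in RNA-directed DNA methylation) and sdg2-4 (a histone H3K4 methyltransferase), each alone and combined with ros1-4. The others were ros1-4 (a DNA demethylase), rdd-2 and drdd (combined mutants of the ROS1 family of demethylases) and met1-9 (the maintenance methyltransferase of CG sites). Roots and shoots came from 2-week-old plants and stems from 4-week-old plants, so that for stem the organ cannot be told apart from the age. No label names a batch. The rdd-2 and drdd libraries are numbered in a run apart from all others, Col-0 shoot included. The labels do not say whether they were made apart from that control. The labels name no allele for gcn5 and hda6 and do not say whether the 2 libraries of a group came from separate plants, so p-values measure the spread between these libraries, which may be technical. For met1-9 the labels say shoot while its peak names say leaf, and for stem the peak names hold words for merged data.

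The lists held between 17315 and 38392 peaks and give no read counts. The background level that the deposited fold and p-value imply, used here in place of depth, ran from 5.01 fragments in ros1-4 replicate 2 to 32.35 in gcn5 replicate 2, against 6.41 and 8.29 in Col-0 shoot. As a check of the organs, RHD6, PLT2, PHT1;1 and RSL4, genes of root hairs, the root meristem and phosphate uptake, had peaks in both root libraries and in no stem or shoot library of Col-0. The light-harvesting genes LHCB2.1 and LHCB1.3 (CAB1) had peaks in every stem and shoot library and in neither root library. The other 2 green-tissue genes were less clear: RBCS1A had peaks in root too, with folds of 5.2 and 5.8, and GLK1 (GPRI1) had none in root or stem, against folds of 6.3 and 6.2 in Col-0 shoot. CASP1, an endodermis gene of the root list, had peaks in every library. It went the other way, with folds of 3.2 and 3.5 in root, against 8.0 and 7.8 in Col-0 shoot. PLT1 of the root list had a peak in root replicate 2 only, with a fold of 2.4. Of the stem list, WOX4 and MYB58 had peaks in all 3 organs. KNAT1 had folds of 7.3 and 7.1 in root, 3.1 and 4.7 in stem and no peak in Col-0 shoot. PXY had no peak in stem, a fold of 2.4 in root replicate 1 and folds of 3.2 and 3.0 in Col-0 shoot. The stem is thus not marked by this list, and it is less well marked than the root.

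Peaks lay at the gene ends and left the long bodies of these genes without called peaks. Of 332 summits within 1 kb of the genes, 3 lay more than 500 bp inside both ends, or 0.904%. In the 992 protein-coding genes of 5000 to 6500 bp, the length range that holds the 6 genes, the share was 10.8%, and 78.3% of those genes had no such summit. The inner summits were a weak one in CESA6 in met1-9 replicate 1, with a fold of 1.69 over background, and 1 each in CESA3 in Col-0 stem replicate 1 and sdg2-4 replicate 1. CESA1, CESA2, CESA5 and CESA9 had none. The reference table gives no strand, so the ends are named here by coordinate, the lower end being the one with the smaller position on the chromosome. Distances of elements and peaks from genes are measured from the summit.

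**Figure D1:**
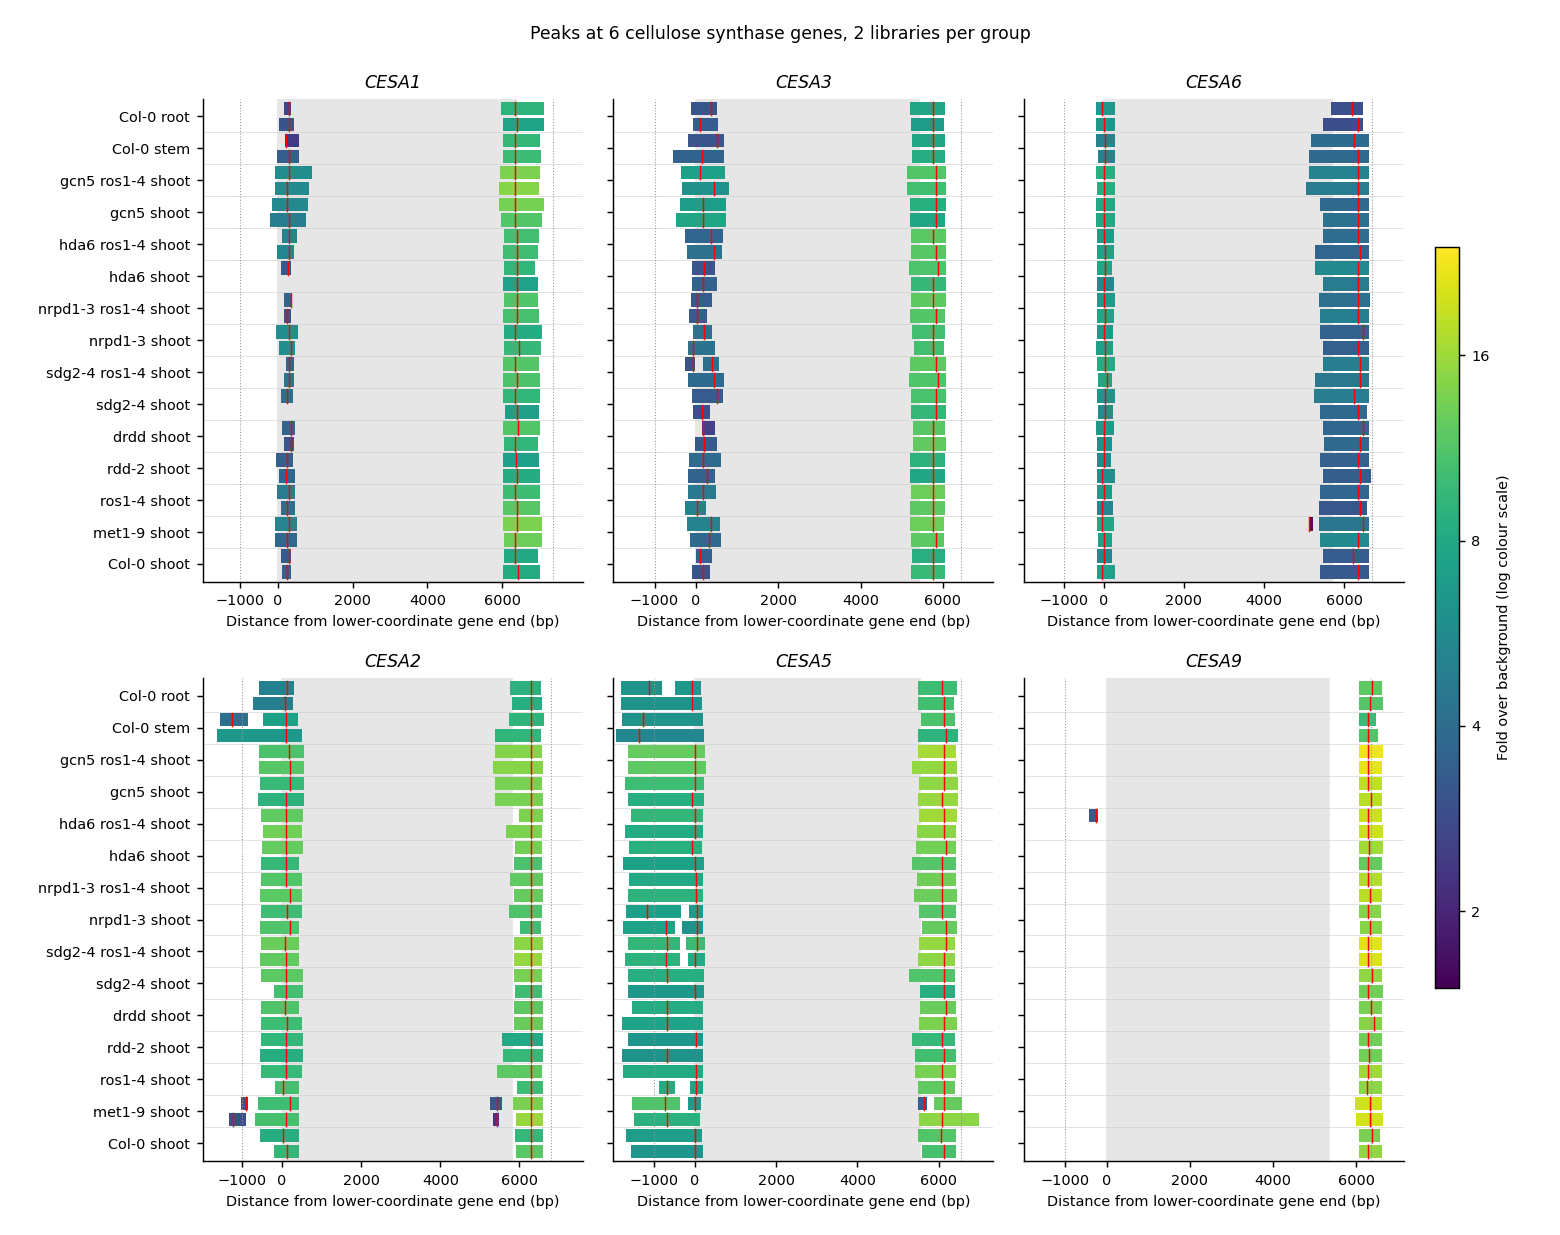
Peaks at the 6 genes in each library: the x axis is the distance in bp from the lower-coordinate end of the gene, each bar is a peak coloured by its fold over background, red ticks are summits, grey is the gene and dotted lines mark 1 kb beyond its ends. Each group has 2 rows, 1 per library; peaks stand at both ends of 5 genes, and CESA9 has its constant peak beyond the upper end.

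CESA1, the subunit without which primary wall complexes fail, had a weak peak at its lower end and a strong one at its upper end. The lower-end element (chr4:15640692-15640992, TAIR10, summit 352 bp inside the gene) had a peak in 28 of 30 libraries, with a median fold over background of 3.74, and none in hda6 replicate 2 and sdg2-4 replicate 2. The neighbouring gene SHS1 (AT4G32400) is 325 bp from the summit of this element. The upper-end element (chr4:15646671-15646971, summit 23 bp inside) had a peak in all 30 libraries, with folds between 7.11 and 14.54 and a median of 9.94.

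CESA3, the other obligate subunit, had a weak peak just inside its lower end and a strong peak beyond its upper end. The lower-end element (chr5:1530150-1530450, 168 bp inside the gene) also overlaps RUL1 (AT5G05160), a receptor kinase gene 95 bp from its summit. The element held a peak in all 30 libraries with a median fold of 3.6. The neighbouring element (chr5:1530496-1530796) was covered in 26 libraries, in most of them by the same peak. The strong peak (chr5:1535748-1536048, 340 bp beyond the upper end) is nearer to AT5G05180, at 159 bp, and its folds ran from 6.88 in root replicate 2 to 12.92 in met1-9 replicate 1 and ros1-4 replicate 1.

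CESA6, the namesake of its branch, had a narrow peak on its lower end and a broad one that ran into the gene from beyond the upper end. The lower-end element (chr5:25880829-25881129, 54 bp outside the gene) had folds from 5.12 to 8.52, with a median of 6.77. The broad peak had its summit in or near the upper-flank element (chr5:25887234-25887534, 656 bp beyond the end), with a median width of 1223 bp and folds from 2.9 to 5.58. In 5 libraries, both of stem, both of gcn5 ros1-4 and sdg2-4 replicate 1, it reached the element 565 bp inside the upper end (chr5:25886013-25886313), where met1-9 replicate 1 had its small separate peak.

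CESA2, which can partly replace CESA6, had strong peaks at both ends. The lower-end element (chr4:18296348-18296648, 110 bp inside) had folds from 4.87 in root replicate 2 to 13.17 in hda6 ros1-4 replicate 2. The upper-flank element (chr4:18302529-18302829, 487 bp beyond the end) overlaps AT4G39360, which is 96 bp from its summit. The element had folds from 8.0 in rdd-2 replicate 1 to 15.66 in met1-9 replicate 2. Its summit was the most fixed of the 6 genes, within 13 bp across 30 libraries. An element 917 bp beyond the lower end (chr4:18295321-18295621) was covered in 6 libraries and one 374 bp inside the upper end (chr4:18301668-18301968) in 10.

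CESA5 had the most sequence under peaks, a median of 2151 bp per library. Its lower-end peak spread over an element 676 bp outside the gene (chr5:3072044-3072344) and one 12 bp inside it (chr5:3072732-3073032), with a median width of 1841 bp where the summit lay near the end. A summit lay at the gene end in 23 libraries and in the outer element in 10, some libraries having both because the peak was split, and in both stem libraries the summit lay farther out still. The upper peak had its summit 540 bp beyond the gene (chr5:3078806-3079106) in all 30 libraries, with a median fold of 12.55, and also covered the element 104 bp beyond the end (chr5:3078370-3078670).

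CESA9 differed from the other 5 genes in having no peak on the gene itself in any library. Its 30 peaks on the upper flank covered an element (chr2:9290531-9290831, 937 bp beyond the end) that overlaps AT2G21780, 24 bp from the element's summit. This element had the highest median fold of all 17 elements, 15.18. The range ran from 9.86 in stem replicate 1 to 22.31 in gcn5 ros1-4 replicate 1. The only other peak, in hda6 ros1-4 replicate 1, lay 275 bp below the lower end (chr2:9283969-9284181) with a fold of 3.36. CESA9 was thus assigned a strong peak only because of the 1 kb limit, and this peak drops out of a 500 bp flank.

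Just outside the limit stood peaks of like strength. A peak 1267 bp from CESA5 was present in 30 libraries with a median fold of 8.07, one 1269 bp from CESA2 in 25 with 3.52, and one 1503 bp from CESA6 in 30 with 5.19. Just inside it stood the CESA9 element and the CESA2 element at 917 bp.

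Total length under peaks varied less between libraries for CESA5 and CESA6 than for CESA1. It ran from 1641 to 2362 bp in CESA5, from 1291 to 2054 bp in CESA6, from 1095 to 2083 bp in CESA3, from 1243 to 2654 bp in CESA2 and from 264 to 495 bp in CESA9. For CESA1 it was 2062 and 1986 bp in gcn5 ros1-4 and 2136 and 2069 bp in gcn5, against 1167 and 1255 bp in Col-0 shoot, and no other library exceeded 1645 bp. The background level was 15.98 and 24.99 fragments in gcn5 ros1-4 and 25.68 and 32.35 in gcn5, against 6.41 and 8.29 in Col-0 shoot. The met1-9 libraries, with levels of 18.63 and 13.14, had 1645 bp or less under peaks at CESA1. The part of the background level in the widths was not tested.

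**Figure D2:**
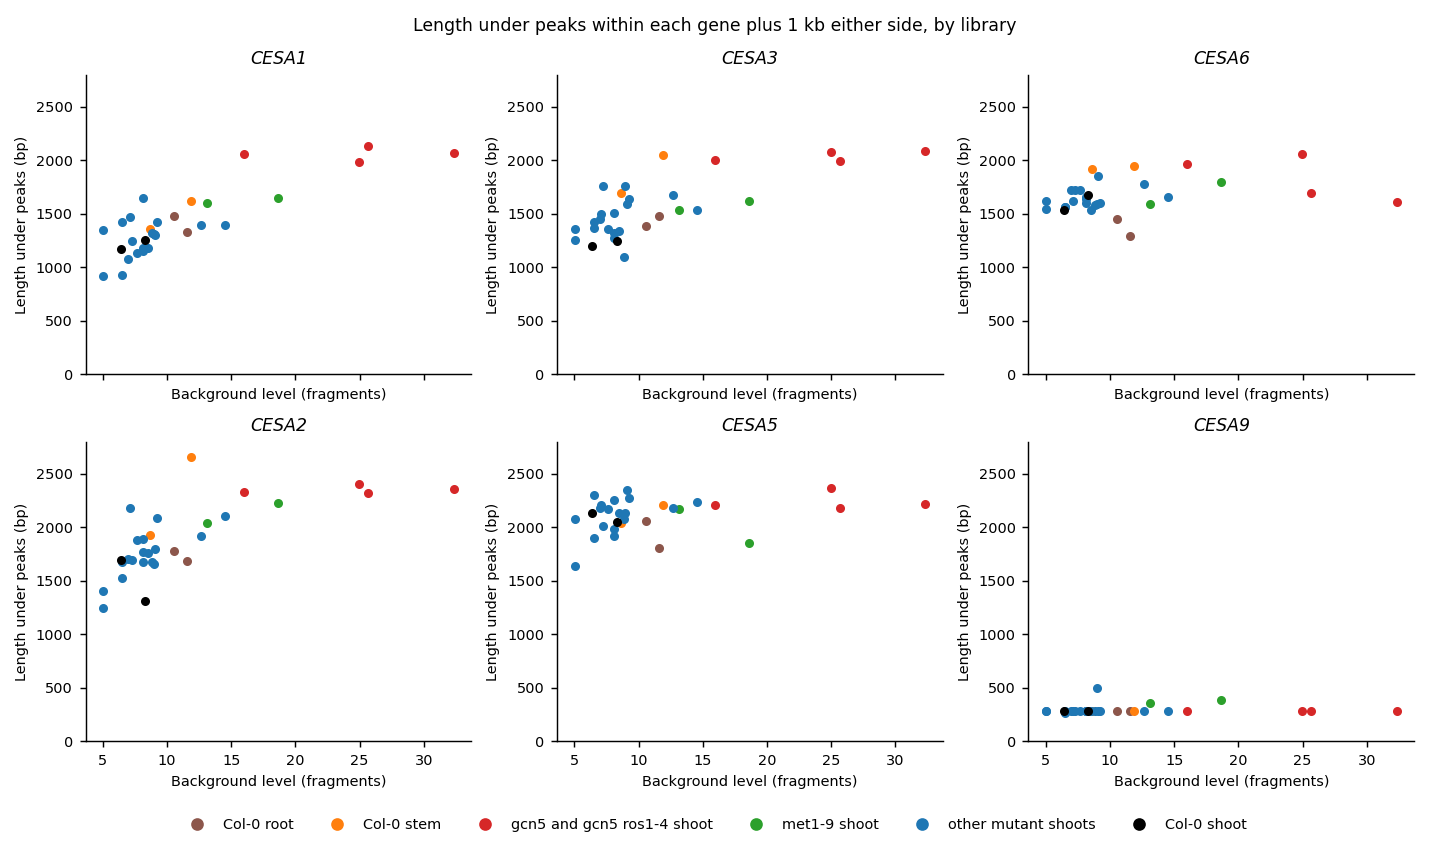
Length under peaks (bp, y axis) within each gene plus 1 kb against the background level of the library (fragments, x axis), 1 point per library. The gcn5 and gcn5 ros1-4 libraries have the longest covered length at CESA1, between 1986 and 2136 bp, at background levels of 15.98 to 32.35 fragments, a range that also holds met1-9 replicate 1 (18.63).

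For the comparisons, presence and strength were treated apart. An element counted as lost when both libraries of the second group and neither library of the first had a peak on it, and as gained in the reverse case. Presence of 2 libraries against 2 allows no exact p below 0.333, so these are counts without a test. Strength was the fold at the summit of the strongest overlapping peak, on a log2 scale after quantile normalisation, tested with limma over the 12881 elements that had a peak in all 30 libraries, with Benjamini-Hochberg adjustment and a threshold of 0.05. Of the 17 elements, 12 entered this test: all but the CESA1 lower end, the second CESA3 element and the 3 sporadic elements of CESA6 and CESA2. Where 1 wide peak covers a pair of elements, as at both ends of CESA5, they carry the same value and are not separate evidence.

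Between organs the peaks at these genes were mostly kept, and the CESA2 lower-end peak was the one that stood apart, weak in root. Its fold was 5.04 and 4.87 in root and 7.24 and 6.55 in stem, against 8.42 and 9.42 in Col-0 shoot. Root lay below every other library of the series at this element, and the next lowest deposited fold was 6.55, in stem replicate 2. Normalised strength was 0.71 lower in root than in shoot on the log2 scale (SE 0.101, adjusted p = 1.19e-05, limma) and 0.60 lower in root than in stem (a log2 change of −0.60, adjusted p = 0.000113, limma). Both changes kept their sign and passed the threshold under all alternatives, between −0.77 and −0.63 against shoot and between −0.73 and −0.48 against stem.

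In stem, the CESA1 upper-end peak and the CESA6 upper-flank peak were stronger than in shoot. The CESA1 peak had folds of 9.47 and 9.89 in stem and 9.03 and 7.58 in root, against 8.03 and 8.13 in Col-0 shoot. Stem lay above shoot in both libraries, by 0.54 on the normalised log2 scale (SE 0.11, adjusted p = 0.000919, limma), and stayed between 0.50 and 0.56 under every alternative. The CESA6 peak had folds of 3.93 and 3.77 in stem and 2.94 and 2.9 in root, against 3.36 and 3.24 in Col-0 shoot. The stem values did not overlap those of the other organs, and the log2 change against shoot was 0.485 (SE 0.14, adjusted p = 0.0128, limma). This call was lost without stem replicate 1 (0.40, adjusted p = 0.11) and without shoot replicate 2 (0.44, adjusted p = 0.082).

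Both of these peaks were also weaker in root than in stem, by smaller margins. The log2 change was −0.44 for the CESA6 upper flank (adjusted p = 0.0223, limma) and −0.30 for the CESA1 upper end (adjusted p = 0.0441, limma). The CESA1 call was lost without root replicate 2 (−0.17, adjusted p = 0.391), without stem replicate 1 (adjusted p = 0.128) and without stem replicate 2 (adjusted p = 0.123), and in all it failed in 7 of 11 alternatives, median centring (adjusted p = 0.0501) and the fit of only the compared groups (adjusted p = 0.098) among them. The CESA6 call was lost without root replicate 1, root replicate 2 or stem replicate 1, with adjusted p between 0.0817 and 0.162, and neither call passed when p-values were adjusted over all 16 contrasts.

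In counts, 1 of 12 elements changed strength in root against shoot, where 30.5% of all tested elements did, 2 of 12 in stem against shoot, where 26.1% did, and 3 of 12 in root against stem, where 27.6% did. The median log2 change of the 12 was 0.08 in root against shoot and 0.09 in stem against shoot, beside 0.001 and −0.002 over all tested elements. By these counts, peaks at the 6 genes were not called more often between organs than peaks elsewhere. By presence, none of the 13 elements that Col-0 shoot had was lost in root (background 10.6%) or in stem (background 11.9%), and root gained none of the 3 that it lacked (background 35.4%). Stem gained 2 of the 3 elements that Col-0 shoot lacked, those inside the CESA6 upper end and 917 bp below CESA2 (background 12.4%), and both were covered by wide peaks with summits elsewhere. The same 2 were lost in root against stem, of 16 that stem had (background 8.26%). Root could gain none against stem, since no element was absent from both stem libraries (background 33.2%).

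**Figure D3:**
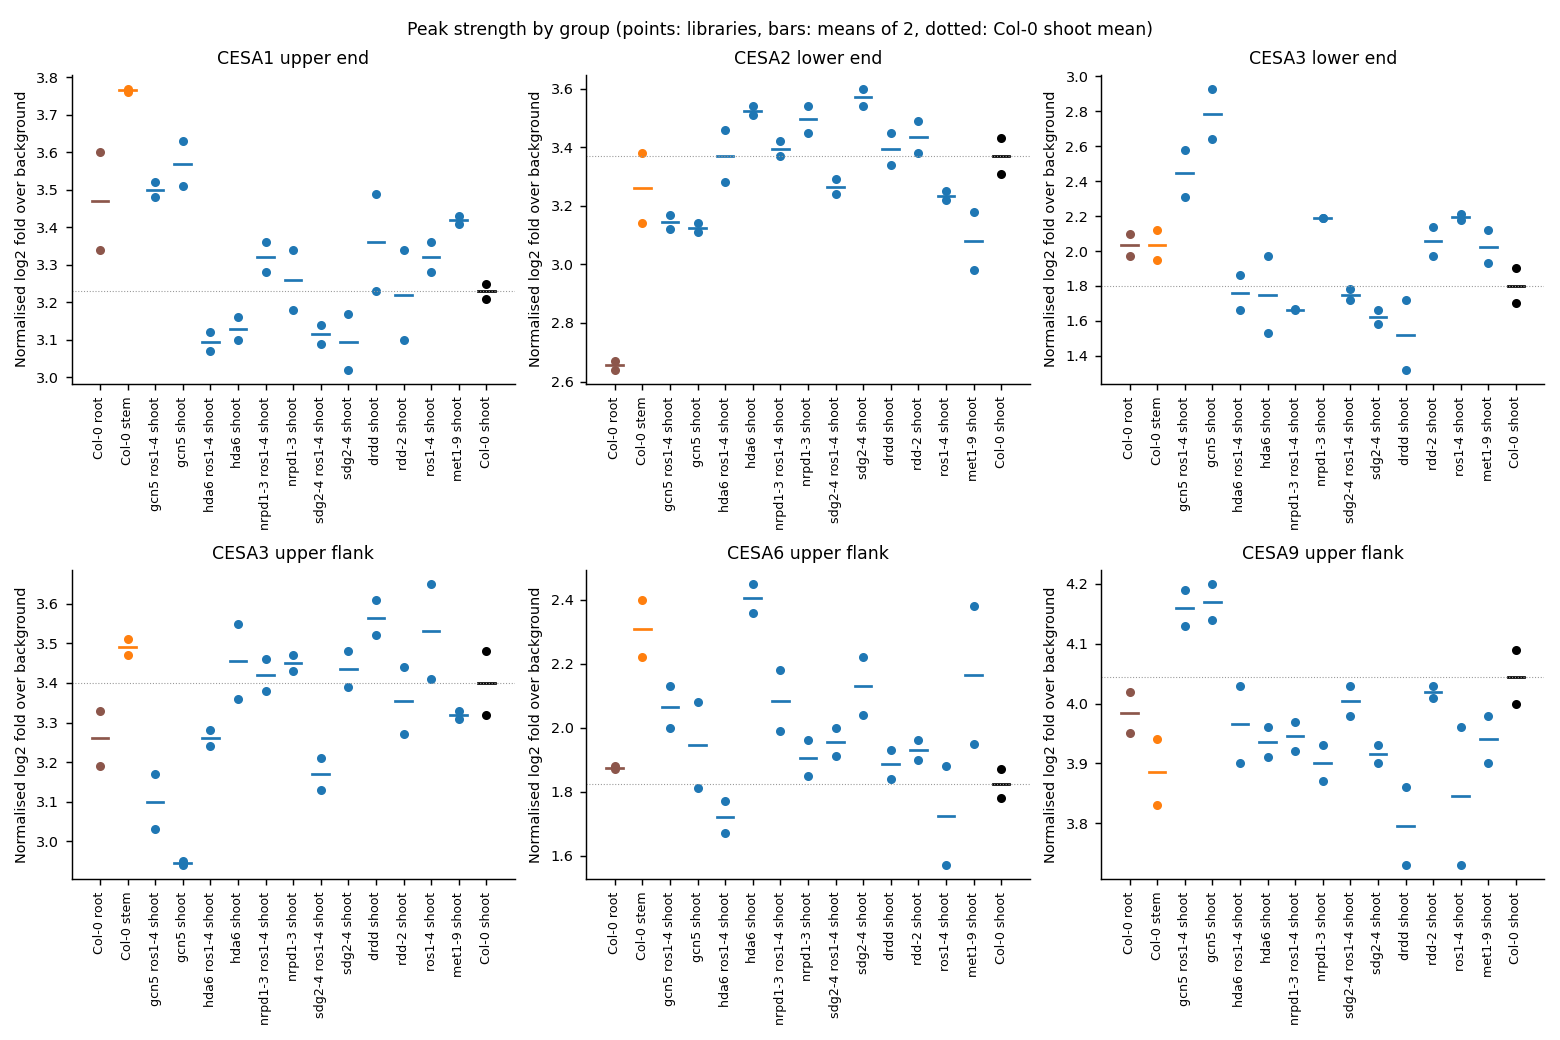
Normalised log2 fold over background (y axis) of 6 elements in the 15 groups (x axis); points are libraries, bars are means of 2 and the dotted line is the Col-0 shoot mean. Root stands alone at the bottom of the CESA2 lower-end panel, stem at the top of the CESA1 panel, and gcn5 at the top of the CESA3 lower-end panel and the bottom of the CESA3 upper-flank panel.

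Among the mutants, gcn5 had the most changed elements at these genes, 3 of 12, and also the largest share over all tested elements, 15%. This ranking therefore does not set the 6 genes apart. At CESA3 the changes went in both directions. The CESA3 lower-end peak had folds of 6.98 and 7.72 in gcn5 and 7.26 and 6.0 in gcn5 ros1-4, against 3.42 and 3.06 in Col-0 shoot. These 4 libraries had the highest folds at this element in the series, and the next highest was 5.06, in met1-9 replicate 1. Normalised strength was higher in gcn5 than in Col-0 by 0.99 (SE 0.153, adjusted p = 0.000356, limma). The CESA3 upper-flank peak moved the other way. Its folds were 8.64 and 7.77 in gcn5, against 8.49 and 9.75 in Col-0 shoot, and these deposited values overlap. After quantile normalisation over the tested elements, the log2 change was −0.46 (SE 0.103, adjusted p = 0.00519, limma). The call was lost without shoot replicate 2, where the change was −0.38.

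CESA1 gave the other gcn5 call. Its upper-end peak had folds of 13.48 and 11.33 in gcn5, against 8.03 and 8.13 in Col-0 shoot, without overlap. The normalised log2 change was 0.345 (SE 0.11, adjusted p = 0.0363, limma), and it lost the call when any of the 4 libraries was left out, with adjusted p between 0.0867 and 0.207. In all, 3 of 12 elements changed in gcn5, where 15% of all tested elements did. By presence, 1 of the 3 elements absent from Col-0 shoot was gained, inside the CESA2 upper end, where 44.8% of all such elements were. It was covered by an extension of the CESA2 upper-flank peak. The higher background level of the gcn5 libraries stands beside each of these values, and its part in them was not tested.

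Col-0 shoot served as the control of 10 comparisons, so these share their 2 control libraries. A comparison of gcn5 ros1-4 with ros1-4 uses 4 other libraries and was added after the results were seen. There the CESA3 upper-flank peak was also lower, with folds of 11.32 and 10.42 in gcn5 ros1-4, against 12.92 and 11.92 in ros1-4. The log2 change was −0.43 (SE 0.103, adjusted p = 0.0157, limma). The call was lost without ros1-4 replicate 1 (−0.31, adjusted p = 0.164), gcn5 ros1-4 replicate 1 (−0.50, adjusted p = 0.0592) or gcn5 ros1-4 replicate 2 (−0.36, adjusted p = 0.211), and in the fit of only the compared groups (adjusted p = 0.0869). The CESA3 lower-end peak, with folds of 7.26 and 6.0 in gcn5 ros1-4 against 4.63 and 5.02 in ros1-4, had a change of 0.245 that did not pass (adjusted p = 0.377), nor did the CESA1 upper end (0.178, adjusted p = 0.372). The gcn5 effect on the CESA3 lower end was not shown to differ between the backgrounds (difference −0.74, SE 0.216, adjusted p = 0.196, limma). The CESA9 flank peak, which had no call in gcn5 alone, had folds of 22.31 and 21.64 in gcn5 ros1-4, against 15.96 and 14.83 in ros1-4, and a change of 0.318 (SE 0.082, adjusted p = 0.0247, limma). That call was lost without ros1-4 replicate 2 (0.20, adjusted p = 0.293), gcn5 ros1-4 replicate 1 (0.29, adjusted p = 0.205) or gcn5 ros1-4 replicate 2 (0.35, adjusted p = 0.127). In this comparison 2 of 12 elements passed, where 5.15% of all tested elements did, and 0 or 1 passed when a library was left out. Against ros1-4, limma's adjusted threshold was passed by 0 of 12 in nrpd1-3 ros1-4 (background 3.67%), hda6 ros1-4 (3.87%) and sdg2-4 ros1-4 (3.31%), with 2, 2 and 2 at an unadjusted p under 0.05. Of all 12881 tested elements, 2272, 2445 and 2396 had such a p.

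In hda6 the CESA6 upper-flank peak was the only element that changed. Its folds were 5.55 and 4.7 in hda6, against 3.36 and 3.24 in Col-0 shoot. Both hda6 libraries exceeded both Col-0 libraries, with a log2 change of 0.58 (SE 0.14, adjusted p = 0.0167, limma). In the double mutant the peak was lower again, with folds of 3.96 and 3.65 in hda6 ros1-4, against 5.55 and 4.7 in hda6 (log2 change −0.69, SE 0.14, adjusted p = 0.0208, limma). Set against ros1-4, which had folds of 3.73 and 3.19, hda6 ros1-4 differed by −0.005 (adjusted p = 0.991, limma), while the difference between the hda6 effects in the 2 backgrounds did not pass (−0.59, SE 0.198, adjusted p = 0.253, limma).

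These CESA6 changes kept their size when single libraries were left out, between 0.54 and 0.63 in hda6 and between −0.73 and −0.64 in the double against hda6, but not always their call. The hda6 call was lost without hda6 replicate 2 or without either library of Col-0 shoot, with adjusted p between 0.0625 and 0.1. The call of the double against hda6 was lost without hda6 replicate 2 or either hda6 ros1-4 library, with adjusted p between 0.125 and 0.194. The background shares were 5.33% of all tested elements in hda6 against Col-0 and 0.637% in hda6 ros1-4 against hda6, beside 1 of 12 here in each. No element was lost or gained at the 6 genes in either comparison.

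met1-9 had 1 call, which came from a divided peak. The CESA5 upper-end element had folds of 3.51 and 14.9 in met1-9, against 11.35 and 10.6 in Col-0 shoot. In replicate 1 the upper peak was split and a small separate peak with its own summit covered the element, whereas in replicate 2 the strong flank peak covered it. The log2 change of −1.01 (adjusted p = 0.0269, limma) became −0.05 without met1-9 replicate 1 (adjusted p = 0.869). The call was also lost without Col-0 shoot replicate 1 (−0.94, adjusted p = 0.136) or replicate 2 (−1.08, adjusted p = 0.0743). The background share was 13.2%. By presence met1-9 gained both sporadic CESA2 elements, 2 of 3 where 40.4% of all such elements were gained, and in replicate 1 and replicate 2 the one inside the upper end had small peaks of its own, with folds of 3.2 and 2.23.

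The DNA demethylase mutants gave no call in strength at the 12 elements. In ros1-4 against Col-0 shoot 0 of 12 passed limma's adjusted threshold (background 1.13%), with 4 at an unadjusted p under 0.05, in rdd-2 0 of 12 (background 0.97%), with 0 unadjusted, and in drdd 0 of 12 (background 1.3%), with 1 unadjusted. Over all 12881 tested elements, 1939 in ros1-4, 1559 in rdd-2 and 1404 in drdd had an unadjusted p under 0.05. The element inside the CESA2 upper end was gained in rdd-2, 1 of 3 (background 8.28%), as the flank peak widened to cover it. Averaged over the 5 backgrounds that ros1-4 was added to (Col-0, nrpd1-3, gcn5, hda6 and sdg2-4), the log2 changes of the 12 ran from −0.17 to 0.01 with a median of −0.06, beside −0.002 over all tested elements, and 11 were negative. None of the 12 passed (background 7.52%), and 4 had an unadjusted p under 0.05, as did 3459 of all 12881 tested elements. The lowest adjusted p was that of the CESA2 lower end, with a change of −0.135 (95% interval −0.23 to −0.04, adjusted p = 0.0642, limma).

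In nrpd1-3 and sdg2-4 against Col-0 shoot, 0 of 12 passed limma's adjusted threshold (backgrounds 1.48% and 3.16%), with 1 and 2 at an unadjusted p under 0.05. Of all 12881 tested elements, 1922 and 2349 had such a p. In nrpd1-3 ros1-4 against nrpd1-3, 0 of 12 passed (background 1.02%), with 1 unadjusted, in gcn5 ros1-4 against gcn5 0 of 12 (background 0.683%), with 1 unadjusted, and in sdg2-4 ros1-4 against sdg2-4 0 of 12 (background 0.419%), with 2 unadjusted. Unadjusted, 1590, 1209 and 1795 of all 12881 elements passed 0.05 in these comparisons, in that order. By presence, gcn5 ros1-4 gained the element inside the CESA6 upper end, the only one that gcn5 lacked (background 5.31%), through a wider flank peak.

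No element at the 6 genes was called lost in the mutants. Losses over all elements were also few, between 0.344% and 4.94%, so these counts do not set the 6 genes apart. None of the 13 present in Col-0 shoot was lost in gcn5 (background 0.344%), hda6 (3.3%), nrpd1-3 (2.82%), sdg2-4 (3.05%), ros1-4 (3.15%), rdd-2 (2.2%), drdd (2.68%) or met1-9 (1.37%). None of the 3 others was gained in hda6 (background 8.71%), nrpd1-3 (7.8%), sdg2-4 (6.86%), ros1-4 (8.49%) or drdd (8.54%). In the doubles against their single mutant none was lost, of 14 for nrpd1-3 ros1-4 (background 3.09%), 15 for gcn5 ros1-4 (4.94%), 13 for hda6 ros1-4 (1.26%) and 12 for sdg2-4 ros1-4 (1.36%). None was gained in nrpd1-3 ros1-4, hda6 ros1-4 or sdg2-4 ros1-4, of 3, 3 and 2 that the single mutants lacked (backgrounds 6.89%, 17.9% and 15.8%).

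At the lower ends of CESA3 and CESA1, the folds were lower with ros1-4 than without it in the nrpd1-3 background and higher with it in the Col-0 background, though not every one of these differences passed the test. The CESA3 lower-end peak had folds of 3.32 and 3.37 in nrpd1-3 ros1-4, against 4.19 and 4.3 in nrpd1-3, while it had folds of 4.63 and 5.02 in ros1-4, against 3.42 and 3.06 in Col-0 shoot. The libraries did not overlap in either comparison, and the directions were opposite. The ros1-4 effect was −0.525 in nrpd1-3 (adjusted p = 0.1) and 0.401 in Col-0 (adjusted p = 0.208), and neither passed alone. Their difference was −0.93 (SE 0.216, adjusted p = 0.0415, limma; background 0.675%), 1 of 12 elements tested, and it also passed in 2 of 13 alternatives.

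The CESA1 lower-end peak, absent from 2 libraries and so outside that test, had folds of 3.54 and 3.01 in nrpd1-3 ros1-4, against 5.81 and 5.85 in nrpd1-3. It had folds of 4.69 and 4.12 in ros1-4, against 3.3 and 3.49 in Col-0 shoot. When elements with a peak in at least 24 libraries were tested, the log2 change was 0.78 in nrpd1-3 against Col-0 (SE 0.174, adjusted p = 0.0239, limma) and −0.99 in nrpd1-3 ros1-4 against nrpd1-3 (SE 0.174, adjusted p = 0.00571, limma). In ros1-4 against Col-0 the change was 0.2 (SE 0.174, adjusted p = 0.617, limma) and did not pass. The difference between backgrounds was −1.19 (SE 0.246, adjusted p = 0.0206, limma). Each call was 1 of 14 elements tested at these genes. Over all elements of that fit, 202 were higher and 171 lower of 21527 in nrpd1-3 against Col-0. In nrpd1-3 ros1-4 against nrpd1-3 they were 125 and 130 of 21683, and for the difference 131 and 62 of 21227. No library was left out in this setting. The second CESA3 element had no peak in replicate 2 of ros1-4, nrpd1-3 ros1-4 and Col-0 shoot. Its difference was −0.80 and its change in nrpd1-3 ros1-4 against nrpd1-3 was −0.48, and neither passed. In the other 3 backgrounds, gcn5, hda6 and sdg2-4, the difference in the ros1-4 effect passed for 0 of 12 elements (backgrounds 0.248%, 0.303% and 0.194%), with 1, 2 and 2 at an unadjusted p under 0.05. Of all 12881 tested elements, 1172, 1380 and 1213 had such a p.

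**Figure D4:**
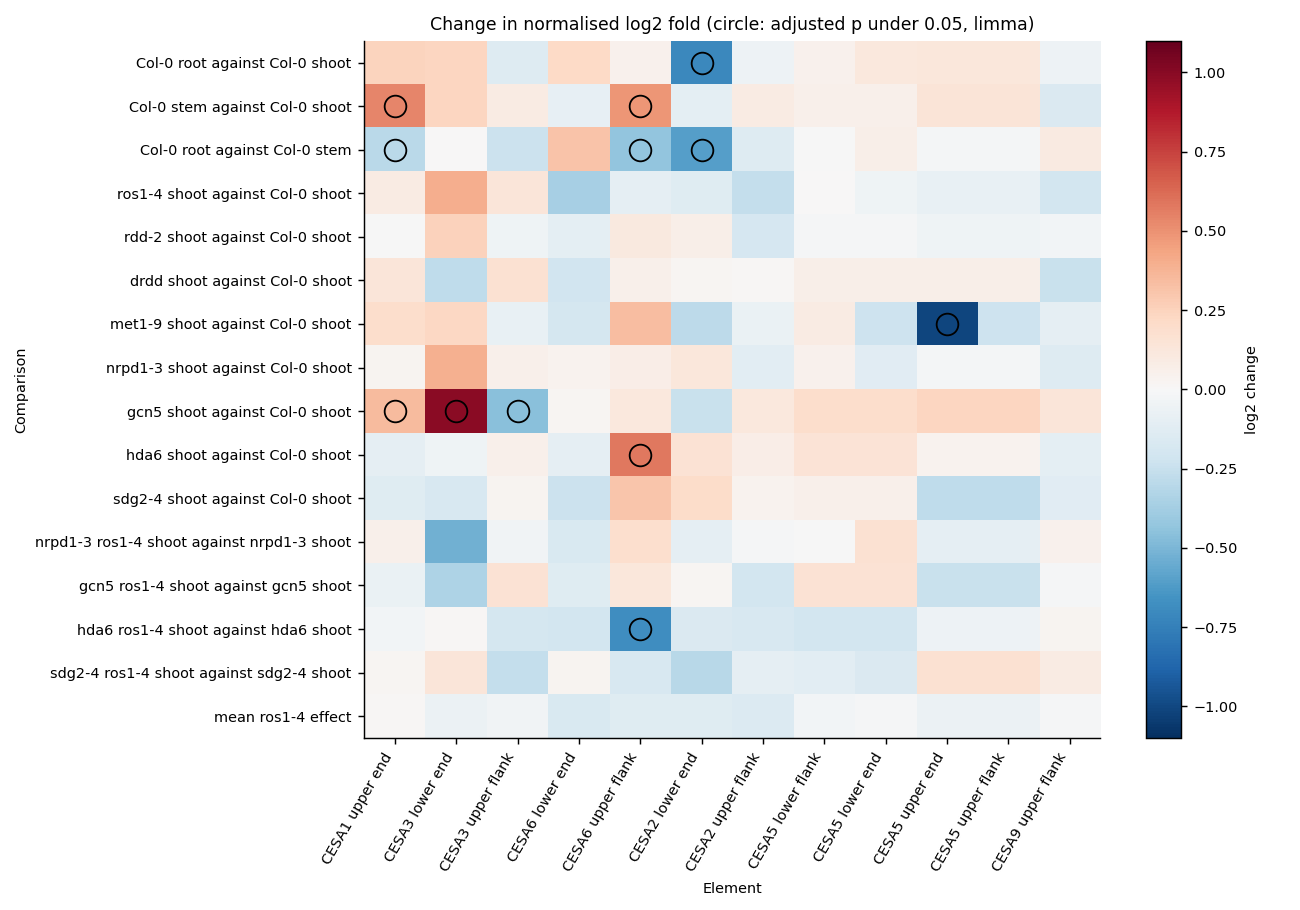
Change in normalised log2 fold (colour) of the 12 tested elements (columns) in the 15 comparisons and the mean ros1-4 effect (rows); circles mark an adjusted p under 0.05 by limma. Circles are few and spread over 6 elements, with the deepest blue at CESA5 in met1-9 (−1.01) and the deepest red at the CESA3 lower end in gcn5 (0.99).

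The order of levels differed from gene to gene. Groups were sorted by mean before neighbours were compared, and separated steps were not counted over all tested elements. These counts therefore do not show whether the elements are unusual. At the CESA1 upper end, normalised log2 strength averaged 3.76 in stem, 3.57 in gcn5, 3.5 in gcn5 ros1-4, 3.47 in root and 3.42 in met1-9. It averaged 3.36 in drdd, 3.32 in ros1-4 and in nrpd1-3 ros1-4, 3.26 in nrpd1-3, 3.23 in Col-0 shoot and 3.22 in rdd-2, and it was lowest in hda6 (3.13), sdg2-4 ros1-4 (3.12), sdg2-4 and hda6 ros1-4 (3.1 each). Stem alone stood clear of its neighbour in this order; in all the other steps the libraries of neighbouring groups overlapped or touched.

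At the CESA2 lower end the order ran from 3.57 in sdg2-4, 3.52 in hda6, 3.5 in nrpd1-3, 3.44 in rdd-2 and 3.4 in drdd and nrpd1-3 ros1-4 to 3.37 in hda6 ros1-4 and Col-0 shoot. Below these came 3.26 in sdg2-4 ros1-4 and stem, 3.24 in ros1-4, 3.14 in gcn5 ros1-4, 3.12 in gcn5, 3.08 in met1-9 and 2.66 in root. Of the 14 steps between neighbours, 3 were free of overlap, and the one to root was the widest. The upper-flank peak of the same gene spanned 0.37 between the highest group, gcn5 at 3.72, and the lowest, ros1-4 at 3.34, and no neighbours were separated.

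At the CESA3 lower end gcn5 averaged 2.78 and gcn5 ros1-4 2.45, followed by 2.2 in ros1-4, 2.19 in nrpd1-3, 2.06 in rdd-2, 2.04 in stem and root and 2.02 in met1-9. Col-0 shoot averaged 1.8, hda6 ros1-4 1.76, sdg2-4 ros1-4 and hda6 1.75, nrpd1-3 ros1-4 1.66, sdg2-4 1.62 and drdd 1.52. The span of 1.27 was the widest of the 12 elements, and 4 of 14 steps were free of overlap. At the CESA3 upper flank the same groups stood at the other end, with gcn5 at 2.94 and gcn5 ros1-4 at 3.1, below 3.56 in drdd and 3.53 in ros1-4.

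At CESA6 and CESA5 few neighbours were separated. The CESA6 lower end was highest in root at 3.1, which was clear of nrpd1-3 at 2.92, and lowest in ros1-4 at 2.51. The CESA6 upper flank averaged 2.41 in hda6, 2.31 in stem, 2.16 in met1-9, 1.83 in Col-0 shoot and 1.72 in ros1-4 and hda6 ros1-4, with no step free of overlap. The CESA5 upper flank averaged 3.9 in gcn5, 3.8 in stem, 3.78 in root and 3.66 in Col-0 shoot, down to 3.38 in sdg2-4, likewise without a separated step. The CESA9 flank peak averaged 4.17 in gcn5 and 4.16 in gcn5 ros1-4, both clear of 4.04 in Col-0 shoot, and 3.8 in drdd, which was the lowest.

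The strongest peaks of the 6 genes did not vary alike over the libraries. Pearson's r of normalised log2 strength over 30 libraries, which come in 15 groups of 2 and differ in background level, ran between the genes from −0.67 for CESA3 and CESA9 to 0.48 for CESA2 and CESA5. Among 13279 genes with a peak in every library, the pattern of CESA1 was most like that of ABC4 (r = 0.76), that of CESA3 like RAD23B (0.88), and that of CESA6 like HVA22B (0.73). CESA2 was most like AT5G56985 (0.73), CESA5 like AT1G19490 (0.74) and CESA9 like TET15 (0.78). The next names were AT3G02450 and AT2G36370 for CESA1, AT3G20260 and AT5G07080 for CESA3, UGT73B3 and NUC-L2 for CESA6, ARF16 and CAK4 for CESA2, IDD4 and PIA1 for CESA5, and SWI3C and AT1G15190 for CESA9. These are descriptions of the best of many, with no test.

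Other genes of cellulose synthesis also had peaks that differed between organs, in both directions. A list of 18 genes held the other CESA genes and partners of the complex, and 14 of them had 37 elements, of which 19 had a peak in all libraries. CESA7, CESA8, CESA10 and CSI3 had none. In root against shoot 2 of 19 elements were higher and 2 lower (median change 0.06), a smaller share than the 30.5% of all tested elements. The peak of STL1, a Golgi protein that acts in the assembly of the complex, had folds of 7.42 and 7.38 in root, against 5.13 and 5.59 in Col-0 shoot (log2 change 0.69, adjusted p = 0.022, limma). CC2, a companion protein that tethers the complex to microtubules, had folds of 5.97 and 5.2 in root, against 3.69 and 5.07 in Col-0 shoot (log2 change 0.59, adjusted p = 0.0207, limma). The peak of COBRA (COB), a GPI-anchored protein of cellulose deposition, covered a pair of elements with folds of 3.59 and 3.24 in root, against 5.92 and 5.72 in Col-0 shoot (log2 change −0.62, adjusted p = 0.00366, limma).

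In stem against shoot 1 of 19 was higher, at CC2 (0.80, adjusted p = 0.00326), and 2 were lower (background 26.1%). KOB1, a gene needed for cellulose in elongating cells, had folds of 3.91 and 4.68 in stem, against 8.82 and 7.18 in Col-0 shoot (log2 change −0.71, adjusted p = 0.00238, limma). STL2 had 5.84 and 6.66 in stem, against 11.04 and 10.42 in Col-0 shoot (−0.52, adjusted p = 0.00689, limma). In root against stem 4 were higher, led by STL1 (1.02) and KOB1 (0.88), and 3 were lower, at COB and at CTL1 (−0.50), a chitinase-like protein (background 27.6%). These counts do not set the partners apart from all tested elements.

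By presence, CSI1, which links the complex to microtubules, had no peak in either root library at an element where stem had 3.92 and 3.93 and Col-0 shoot 4.75 and 4.77 fold over background, the only one of 20 lost in root against shoot (background 10.6%). Root gained 4 of 9 (background 35.4%), at CC2, STL1, COB and SHOU4L, and stem gained 3 of 9 (background 12.4%), at CC2, STL1 and COB. The added COB peak was 6.84 and 6.78 fold over background in root and 3.61 and 3.78 fold in stem, and Col-0 shoot had none.

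In the mutants the partners gave few calls in strength. Against Col-0 shoot, limma passed 1 of 19 in each of gcn5 (SHOU4L, −0.56, adjusted p = 0.00321), hda6 (COB, −0.62, adjusted p = 0.0256), nrpd1-3 (CTL1, 0.78, adjusted p = 0.0305) and met1-9 (CC1, −0.47, adjusted p = 0.0057). The hda6 call was at another COB element than the pair above, with folds of 3.24 and 3.06, against 4.63 and 4.17 in Col-0 shoot. That pair had 7.35 and 5.73 in hda6, against 5.92 and 5.72, and no call. A neighbouring SHOU4L element had the same deposited folds in gcn5 and Col-0 shoot and was not called. The shares of all tested elements were 15% in gcn5, 5.33% in hda6, 1.48% in nrpd1-3 and 13.2% in met1-9. Averaged over backgrounds, 3 of 19 were lower with ros1-4, at STL2 (−0.20, adjusted p = 0.0467), the endoglucanase gene KOR1 (−0.21, adjusted p = 0.0284) and the wall-sensing receptor kinase gene THE1 (−0.20, adjusted p = 0.0468), where 7.52% of all tested elements changed. A neighbouring KOR1 element, with the same deposited folds in the libraries of this contrast, was not called. By presence gcn5 gained 6 of 9 (background 44.8%), and ros1-4, rdd-2 and hda6 gained 2 of 9 each (8.49%, 8.28% and 8.71%). In drdd, met1-9, nrpd1-3 and sdg2-4, 1 of 9 was gained in each (8.54%, 40.4%, 7.8% and 6.86%). No partner element was lost in any mutant against Col-0 shoot. Against their single mutants, hda6 ros1-4 and sdg2-4 ros1-4 gained 3 of 11 each (17.9% and 15.8%) and lost none. The nrpd1-3 ros1-4 double gained 1 of 9 (6.89%) and lost 2 of 24 (3.09%), and gcn5 ros1-4 lost 1 of 33 (4.94%).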

How the data were processed

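MACS2 peak lists of 30 ATAC-seq libraries were used. Per the submitters' processing notes, FastQC, BWA, SAMtools, GATK and MACS2 were run on TAIR10; versions and settings are not given in the sources used here. Each deposited line gives a ratio, the fold of the summit over local background, the −log10 p-value and −log10 q-value, and a score, all made by the authors. Folds are not counts, so depth is unknown; the background level was read back from the deposited fold and −log10 p-value, and no interval for counting error is given. The smallest deposited −log10 q was 2.0.

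Summits of all lists, ranked by −log10 q within a list, set windows of 150 bp to either side; 42611 of 48484 were kept as elements. A peak covers an element when they overlap by any base. Strength was tested with limma 3.58.1 in R 4.3.3 (trend, 15 group means, quantile-normalised log2 fold, 12881 elements) and checked on simulated data. The 4 libraries of a presence comparison allow no p below 0.333. The main fit had no replicate block, because replicate differences correlated between −0.323 and 0.371 over 105 pairs of groups. Gene positions came from a RefSeq table of TAIR10.1 and were checked: 66.94% of summits lay outside genes, against 60.95% and 60.65% with genes moved by 100 bp either way. That table has no strand, and no sequences or motifs were used here. The doubles were also set against ros1-4, a comparison added after the results were seen. All 6 genes are named, and of other genes those most alike or with a called element. The genes, lists and comparisons were chosen with earlier results of these data known.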

Additional observations from a re-analysis of the deposited data

Results flagged for a closer look

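The effect of ros1-4 on the CESA3 lower-end peak differed between the nrpd1-3 and Col-0 backgrounds by −0.93 on the normalised log2 scale, with opposite directions in the 2 backgrounds. It was picked out because the difference itself passed limma's threshold (adjusted p = 0.0415). In 13 alternatives the difference stayed between −1.03 and −0.74, and in 11 of them it no longer passed, with adjusted p up to 0.136. These include leaving out any of the 8 libraries, for example −0.83 (adjusted p = 0.136) without Col-0 shoot replicate 2 and −0.93 (adjusted p = 0.0899) without nrpd1-3 replicate 1.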

How the results depend on the processing

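The 17 elements stayed between 13 and 17, and the 12 with a peak in all libraries between 8 and 11, under the alternatives for calling them. Lost and gained elements at the 6 genes numbered 4 over the organ comparisons, 4 over the mutants against Col-0 and 1 over the doubles against their single mutant. Lists cut to equal length gave 10, 9 and 5, and a 500 bp flank gave 2 for the organs. Leaving out 1 library gave 4 to 6, 4 to 10 (10 without Col-0 shoot replicate 1) and 1 to 3. Changed elements, with the range on leaving out 1 library, numbered 1 (1 to 2) in root against shoot, 2 (1 to 2) in stem against shoot, 3 (1 to 2) in root against stem, 3 (1 to 2) in gcn5, 1 (0 to 2) in met1-9, 1 (0 to 1) in hda6 and 1 (0 to 1) in hda6 ros1-4 against hda6. They numbered 0 (0 to 1) in ros1-4 and 0 (0 to 2) for the mean ros1-4 effect. A fit of only the compared groups gave 1 in stem against shoot, 1 in root against stem, 0 in met1-9, 0 in hda6, 0 in hda6 ros1-4 against hda6 and 1 for the mean ros1-4 effect. Requiring the summit inside the element, which leaves out the CESA6 upper flank, gave 1, 1, 0 and 0 in stem against shoot, root against stem, hda6 and hda6 ros1-4 against hda6, and 3 for the mean ros1-4 effect, for which median centring gave 1. Elements with a peak in at least 24 libraries gave 2 in met1-9, 1 in nrpd1-3 and 1 in nrpd1-3 ros1-4 against nrpd1-3. Adjustment over all 16 contrasts, added after the results were seen, gave 1 in root against stem, 2 in gcn5 and 1 in nrpd1-3 ros1-4 against nrpd1-3. For gcn5 the fit of only the compared groups and the summit inside the element also gave 2, and at least 24 libraries gave 4. In the added comparison of gcn5 ros1-4 with ros1-4, the 2 calls became 0 with only the compared groups and 0 to 1 on leaving out 1 library. In that of sdg2-4 ros1-4 with ros1-4, the 0 calls became 1 with at least 24 libraries, 1 with the summit inside the element and 0 to 1 on leaving out 1 library. The hda6 effect on the CESA6 upper flank, 0.58, was −0.005 against ros1-4. The fit with a replicate block gave the same number of calls in every comparison, such as 3 in gcn5. The causes of these shifts were not tested, and the unknown depth limits the absence of weak peaks in the shallower lists.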
